A study of Mus musculus with 18 samples.

Results

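Synaptonemal complex proteins, meiosis-specific cohesin subunits, HORMA-domain proteins of the chromosome axis and the meiotic entry factor Stra8 are genes that mammalian cells normally use only in meiosis. The members described here are 10 such genes, Sycp1, Sycp2, Sycp3, Syce1, Hormad1, Hormad2, Smc1b, Stag3, Rec8 and Stra8, matched by symbol among the 31053 genes counted in each library, and all 10 were found. Their messenger RNA was followed in single-cell RNA-seq libraries of mouse embryos at embryonic day (E) 8.5, when organ progenitors have formed. Of the 18 libraries 7 were WT, 3 lacked Dnmt1 (Dnmt1 KO), 4 lacked Dnmt3a (Dnmt3a KO) and 4 lacked Dnmt3b (Dnmt3b KO), each made from 1 dissociated embryo of the 129S4/SvJae background. KO embryos were homozygous for a null allele and came, like the WT embryos, from matings of heterozygous mice; their genotype had been read by PCR on ecto-placental cone. The null alleles were inherited and not limited to a tissue, so a KO library also carries any effect on which cells are present. In Dnmt1 KO embryos maintenance methylation is lost, and in Dnmt3a KO or Dnmt3b KO embryos 1 of the de novo methyltransferases is lost.

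In meiotic prophase the synaptonemal complex joins paired homologues like a zip. Sycp1 spans the gap as the transverse filament, Syce1 belongs to the central element between the filaments, and Sycp2 and Sycp3 line the chromosome axes. Under the axes, Rec8, Stag3 and Smc1b replace their mitotic counterparts in cohesin, Hormad1 and Hormad2 mark axes that have not yet paired, and Stra8, induced by retinoic acid, starts the programme. In somatic cells of the mouse these genes are usually silent, and several have promoters rich in CG dinucleotides whose DNA methylation is laid down around implantation.

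In the GENCODE annotation of mm10 all 10 are protein-coding and lie on 9 chromosomes. Sycp1 (ENSMUSG00000027855) spans chr3:102818499-102936100 on the minus strand and Hormad1 (ENSMUSG00000028109) chr3:95559677-95587671 on the plus strand. Sycp2 (ENSMUSG00000060445) lies at chr2:178345293-178407685, on the same chromosome as Dnmt3b and 24.7 Mb from it. Sycp3 (ENSMUSG00000020059) is at chr10:88459569-88473236 and Syce1 (ENSMUSG00000025480) at chr7:140777229-140787852. Hormad2 (ENSMUSG00000020419) spans chr11:4345814-4441105 and Stra8 (ENSMUSG00000029848) chr6:34920163-34939344. The cohesin genes are Smc1b (ENSMUSG00000022432, chr15:85064689-85131964), Stag3 (ENSMUSG00000036928, chr5:138280240-138312393) and Rec8 (ENSMUSG00000002324, chr14:55618037-55625395).

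All 10 matched a RefSeq promoter window (build GRCm38.p6), which runs from 250 bases before the RefSeq start to 50 after it. Within that window the members held between 10 and 30 CG dinucleotides, each more than the median of 7 over promoters of the same length. The E-box CACGTG, which reads the same on both strands, occurred in 4 of 10 (once in Sycp1 and Stag3, and 2 times each in Sycp3 and Hormad1), against 7.15% of all promoters. The hexamer TCCCGC, an E2F-type motif counted on both strands, occurred in 6 of 10 against 19.98%, and both motifs stood together in 4 against 1.994%. Of 27 other meiosis genes with a window, 5 held CACGTG. These matches are counts of letters and not sites. Both motifs hold a CG, and the percentages are over all promoters and not over those of like CG content. The part of CG content in these shares was not tested. The stretches before the start are shown for 3 promoters with the E-box and, for contrast, for Syce1, whose whole-embryo change was close to that of Hormad1 in every KO but whose window held none. Each runs 5′ to 3′ on the gene's own strand and stops before the first annotated start (RefSeq or GENCODE), and capitals mark CACGTG.
Sycp1, chr3:102936101-102936350, minus strand: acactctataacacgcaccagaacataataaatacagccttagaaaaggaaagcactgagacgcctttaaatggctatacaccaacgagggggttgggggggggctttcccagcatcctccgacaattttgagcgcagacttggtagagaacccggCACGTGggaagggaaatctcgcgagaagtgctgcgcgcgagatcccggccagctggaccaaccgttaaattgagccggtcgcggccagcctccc
Sycp3, chr10:88459337-88459568, plus strand: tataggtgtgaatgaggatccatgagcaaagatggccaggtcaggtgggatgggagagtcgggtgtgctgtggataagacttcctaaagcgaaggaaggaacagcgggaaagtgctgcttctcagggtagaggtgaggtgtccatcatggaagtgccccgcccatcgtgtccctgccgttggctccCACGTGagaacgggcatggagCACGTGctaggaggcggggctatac
Hormad1, chr3:95559427-95559676, plus strand: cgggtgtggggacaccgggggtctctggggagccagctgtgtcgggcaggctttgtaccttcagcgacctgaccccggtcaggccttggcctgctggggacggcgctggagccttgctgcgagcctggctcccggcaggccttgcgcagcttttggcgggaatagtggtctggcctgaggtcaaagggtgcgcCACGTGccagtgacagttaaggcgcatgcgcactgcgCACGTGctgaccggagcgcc
Syce1, chr7:140787855-140788104, minus strand: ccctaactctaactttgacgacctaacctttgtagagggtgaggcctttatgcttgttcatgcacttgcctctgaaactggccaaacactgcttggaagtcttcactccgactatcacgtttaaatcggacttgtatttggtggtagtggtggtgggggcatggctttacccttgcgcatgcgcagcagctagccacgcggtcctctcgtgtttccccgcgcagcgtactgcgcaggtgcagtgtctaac
Measured from the RefSeq start, the E-box began 94 bases before it in Sycp1, 64 and 43 before it in Sycp3, 57 and 20 before it in Hormad1 and 170 before it in Stag3. The windows of Stag3 and Stra8 lie wholly downstream of the GENCODE start, inside the annotated gene.

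Levels below are unique molecular identifiers (UMIs), scaled to 1000000 UMIs of the same embryo's kept cells (CPM), and a UMI stands for 1 captured transcript 3′ end. After filtering, 109962 cells remained, 34421 of them WT, 7068 from Dnmt1 KO, 34004 from Dnmt3a KO and the other 34469 from Dnmt3b KO. Libraries held 36516346 to 234638944 UMIs, with median depths of 4464 to 59714 UMIs per cell. Dnmt3b KO 1 and Dnmt3b KO 2 shared 12249 cell barcodes, where the next highest of 153 pairs shared 133. Both were therefore summed and counted as 1 unit, so that n = 3 for Dnmt3b KO. Of their kept barcodes 7853 occurred in both and stand 2 times in the cell numbers here, and with each counted once Dnmt3b KO had 26616 cells and all genotypes together 102109. The targeted transcripts followed the labels for Dnmt1 (14.9 to 15.7 CPM in Dnmt1 KO against 83.3 to 116 in WT) and Dnmt3a (7.35 to 11.7 in Dnmt3a KO against 23.1 to 35 in WT). Dnmt3b reads at the 3′ end did not fall in Dnmt3b KO (log2 fold change 0.00), so they check nothing there. Dnmt3a stood at 7.55 CPM in Dnmt3b KO 12 and 15.1 in Dnmt3b KO 11, below every WT embryo, and at 32.0 in both Dnmt3b KO 1 and 2. Counts of calls in Dnmt3b KO are therefore also given without libraries 11 and 12, which leaves 1 unit (libraries 1 and 2 together) whose spread is taken from the other groups. Y-linked transcripts exceeded 10 CPM in 1 of 7 WT (WT 2), 3 of 3 Dnmt1 KO, 4 of 4 Dnmt3a KO and 3 of 4 Dnmt3b KO libraries, so sex and genotype were partly confounded.

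Whole embryos were compared first, to ask how the genes' levels differed in embryos lacking each methyltransferase. In Dnmt1 KO, 9 of the 10 genes were higher than in WT (all but Rec8), and in Dnmt3b KO the same 9 were higher. The Dnmt3b KO count was 5 without Dnmt3b KO 11 and 12, and 0 among the libraries with Y-linked transcripts, a fit that called no gene at all in this genotype. In Dnmt3a KO, 2 of 10 passed (Syce1 and Hormad1). No member was lower in any KO. A call needed a Benjamini-Hochberg adjusted p below 0.01 with a change of 1 log2 unit or more in edgeR's quasi-likelihood test over 18760 genes. Among all genes tested, 8.15% were called higher and 6.11% lower in Dnmt1 KO. In Dnmt3a KO 0.213% were higher and 0.0107% lower, and in Dnmt3b KO 1.77% and 0.0267%. The members' median log2 fold change was 4.17 (Dnmt1 KO), 1.05 (Dnmt3a KO) and 2.95 (Dnmt3b KO), where that of all genes was 0.01, 0.00 and -0.01. Every Dnmt1 KO embryo lay above every WT embryo for all 10 members, a pattern seen in 10.9% of genes. The same held in Dnmt3b KO for 9 of 10 (5.63% of genes) and in Dnmt3a KO for 4 of 10 (2.05% of genes). Sums over an embryo cannot tell fewer cells of a type from less RNA per cell, and the p-values measure the spread between embryos.

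**Figure D1:**
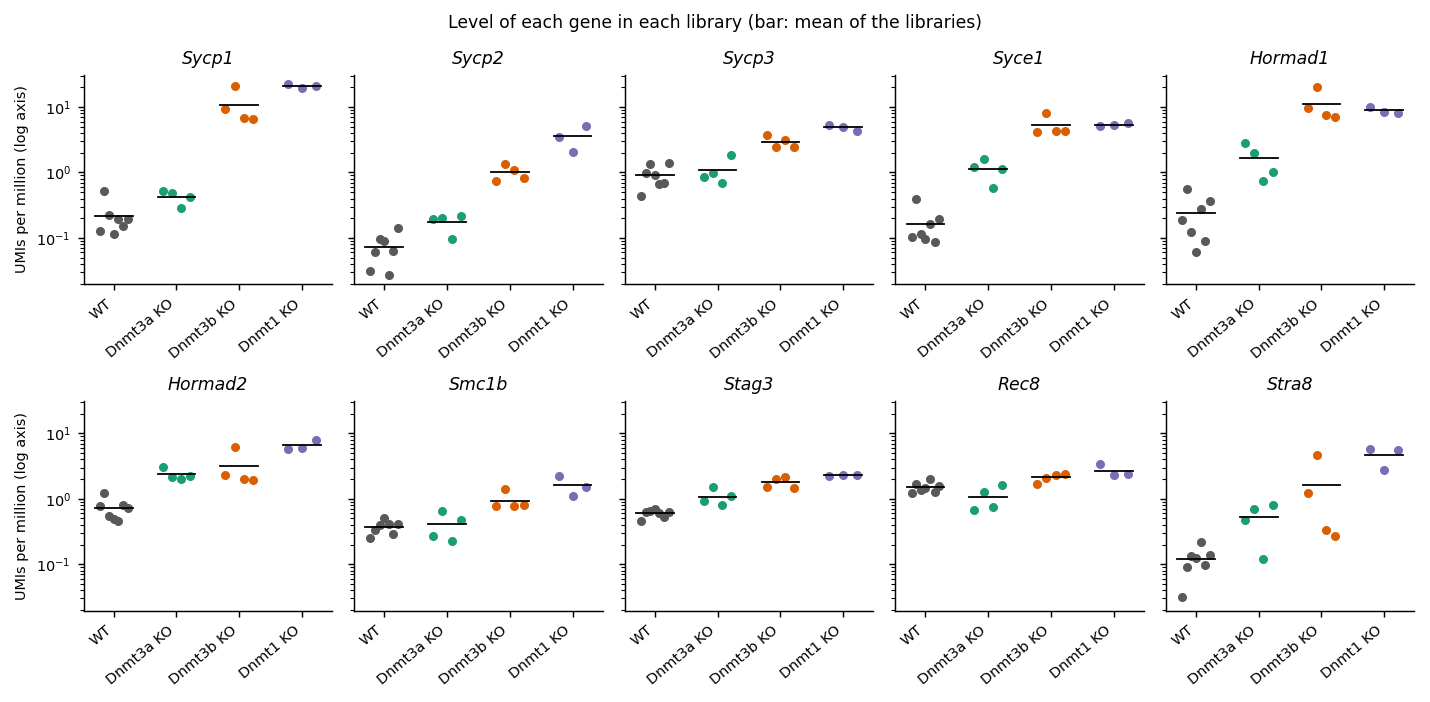
Level of each of the 10 genes in each of the 18 libraries, in CPM on a log axis, grouped by genotype, with 1 point per library and a bar at the mean of the libraries. Points of Dnmt1 KO lie above those of all 7 WT embryos for every gene, and among Dnmt3b KO libraries number 12 stands highest for Sycp1, Hormad1 and Stra8.

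Sycp1, the transverse filament, ranged in WT from 0.114 through a median of 0.191 to 0.527 CPM. It stood at 22.5, 19.6 and 21 CPM in the 3 Dnmt1 KO embryos. In Dnmt3b KO it was 6.72 and 6.49 in libraries 1 and 2, 9.39 in library 11 and 21 in library 12. No KO embryo of these 2 genotypes overlapped WT, and Dnmt3b KO 12 alone reached the Dnmt1 KO range. The mean was 96.2 times WT in Dnmt1 KO (21 ± 1.42 against 0.219 ± 0.141 CPM, SD, n = 3 and 7) and 56.3 times WT in Dnmt3b KO (12.3 ± 7.62, n = 3). Without Dnmt3b KO 12 the latter was 36.6 times WT (mean 7.99 CPM). On the fitted scale the log2 fold changes were 6.63 ± 0.393 (SE, adjusted p = 2.78e-09) and 5.75 ± 0.385 (adjusted p = 1.04e-07). In Dnmt3a KO, Sycp1 was 0.283, 0.422, 0.520 and 0.477 CPM in embryos 1, 2, 13 and 14, all within the WT range. The top of that range was WT 2 alone, and the next WT embryo stood at 0.224 CPM, below all 4. That log2 difference of 0.92 did not pass (adjusted p = 0.435).

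Syce1 of the central element gave 0.0864, 0.114 and 0.400 CPM as lowest, median and highest WT values. It reached 5.10, 5.39 and 5.69 CPM in Dnmt1 KO embryos 1, 2 and 3. Its Dnmt3b KO values were 4.35, 4.29, 4.22 and 8.24 CPM in libraries 1, 2, 11 and 12. Both groups lay wholly above WT and overlapped each other, with log2 fold changes of 5.10 ± 0.386 (adjusted p = 4.62e-08) and 5.04 ± 0.384 (adjusted p = 4.13e-07). Dnmt3a KO lay between, at 0.576, 1.12, 1.21 and 1.59 CPM in embryos 1, 2, 13 and 14. All 4 exceeded every WT embryo, and the log2 fold change of 2.74 ± 0.362 passed (adjusted p = 0.000784). That call was lost in 3 of 30 alternative fits, namely with a Y-linked covariate (log2 2.38, adjusted p = 0.0306), with the replicate block and among libraries with Y-linked transcripts, which all 4 of these embryos but only 1 of 7 WT carried.

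The axis proteins Sycp2 and Sycp3 differed in how low their WT level was. Sycp2 ranged from 0.0274 to 0.141 CPM in WT (median 0.0624) and was 3.43, 2.06 and 5.19 in Dnmt1 KO. It was 1.09, 0.814, 0.751 and 1.35 in Dnmt3b KO libraries 1, 2, 11 and 12. These groups did not overlap: WT lay lowest, Dnmt3b KO above it and Dnmt1 KO highest, with log2 fold changes of 3.68 and 5.6 against WT. Sycp2 was also the 1 member called between Dnmt1 KO and Dnmt3b KO (log2 1.92 ± 0.396, adjusted p = 0.00216), in a comparison that called 3.7% of genes higher in Dnmt1 KO. Without Dnmt3b KO 11 the Sycp2 call was lost (log2 1.77, adjusted p = 0.014). Sycp3 had a WT range of 0.435 to 1.41 CPM around a median of 0.909. Its values were 5.39, 5.02 and 4.34 CPM in Dnmt1 KO and 3.15, 2.41, 3.8 and 2.44 in Dnmt3b KO libraries 1, 2, 11 and 12. Both lay above WT without overlap, by smaller log2 fold changes of 2.48 ± 0.311 (adjusted p = 1.11e-05) and 1.68 ± 0.312 (adjusted p = 0.00325). The Dnmt3b KO call of Sycp3 was lost in 6 of 31 alternative fits (adjusted p up to 0.87), among them those with a Y-linked covariate (0.0284) and without Dnmt3b KO 11 (0.0304). Neither axis gene passed in Dnmt3a KO (log2 1.19 and 0.24).

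Hormad1 and Hormad2, which mark unpaired axes, are paralogues with different WT levels. Hormad1 was 0.0602, 0.186 and 0.557 CPM at the lowest, median and highest WT embryo. In Dnmt1 KO it was 10.2, 8.30 and 8.23 CPM. It was 7.56, 7.05, 9.61 and 20.1 CPM in Dnmt3b KO libraries 1, 2, 11 and 12. The 2 KO groups overlapped each other but not WT (log2 5.31 ± 0.516 and 5.67 ± 0.518, adjusted p = 7.75e-07 and 2.16e-06). All Dnmt3a KO embryos were above WT as well, at 0.742, 1.01, 2.82 and 2.02 CPM. That log2 fold change of 2.79 ± 0.481 passed narrowly (adjusted p = 0.0085), and 18 of 30 alternative fits lost the call (adjusted p = 0.000195 to 1 over the alternatives). Hormad2 ran from 0.466 to 1.22 CPM in WT (median 0.726), was 5.71, 5.93 and 8.04 in Dnmt1 KO and 2.0, 1.91, 2.34 and 6.29 in Dnmt3b KO. Its Dnmt3a KO values of 2.03, 2.20, 3.1 and 2.19 CPM in embryos 1, 2, 13 and 14 also lay above WT, and this log2 fold change of 1.69 ± 0.303 fell just short (adjusted p = 0.0116). It passed in 8 of 30 alternative fits, DESeq2 among them (adjusted p = 1.77e-05 to 1 over the alternatives). In Dnmt1 KO and Dnmt3b KO the log2 fold changes of Hormad2 were 3.23 and 2.22.

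The meiotic cohesin subunits had the 3 smallest log2 fold changes of the members in Dnmt1 KO and in Dnmt3b KO. Smc1b had WT values of 0.253 to 0.50 CPM (median 0.398) and reached 2.19, 1.11 and 1.49 CPM in Dnmt1 KO. In Dnmt3b KO it was 0.786, 0.80, 0.777 and 1.40 CPM. Neither group overlapped WT (log2 2.18 and 1.39), though 11 of 31 alternative fits lost the Dnmt3b KO call. Stag3 ranged from 0.453 to 0.698 CPM in WT, was 2.24, 2.28 and 2.31 in Dnmt1 KO, and was 2.16, 1.47, 1.5 and 2.0 in Dnmt3b KO. Its log2 fold changes were 2.0 ± 0.16 and 1.52 ± 0.159. Dnmt3a KO embryos, at 0.791, 1.09, 0.934 and 1.52 CPM, were all above WT too, with a log2 value of 0.82 that missed both thresholds (adjusted p = 0.0129). Rec8 was already present in WT, from 1.24 through 1.44 to 2.0 CPM. It was 3.36, 2.35 and 2.35 CPM in Dnmt1 KO, above every WT embryo, with a log2 fold change of 0.90 ± 0.22 (adjusted p = 0.00396) that missed the size threshold. It was 2.34, 2.42, 1.70 and 2.05 in Dnmt3b KO and 0.747, 1.61, 0.672 and 1.27 in Dnmt3a KO, and neither group separated from WT. The mitotic counterparts Smc1a, Smc3, Rad21, Stag1 and Stag2 gave no call in any KO by edgeR (0 of 5 in each). At an unadjusted p below 0.05 there were 2, 1 and 1 of them in Dnmt1, Dnmt3a and Dnmt3b KO. Their median log2 values were 0.16, -0.16 and -0.17, with Stag1 the highest at 0.62 in Dnmt1 KO.

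Stra8, the meiotic entry factor, ranged in WT from 0.0311 to 0.219 CPM (median 0.126). It was 5.78, 2.73 and 5.58 CPM in Dnmt1 KO. Dnmt3b KO was uneven, with 0.329 and 0.267 CPM in libraries 1 and 2, 1.21 in library 11 and 4.61 in library 12. Both groups lay above WT, and the log2 fold changes were 5.48 ± 0.62 (adjusted p = 3.68e-06) and 4.17 ± 0.609 (adjusted p = 0.000324). Dnmt3a KO embryos gave 0.122, 0.802, 0.479 and 0.690 CPM, of which the first lay within the WT range (log2 2.23 ± 0.589, adjusted p = 0.131). Without Dnmt3b KO 11 and 12 the Stra8 log2 value was 1.36 and no longer passed. In that fit 5 of 10 members remained called in Dnmt3b KO (Sycp1, Sycp2, Syce1, Hormad1 and Stag3), where 85 of 19675 genes were called higher (0.432%) in place of 332 of 18760.

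**Figure D2:**
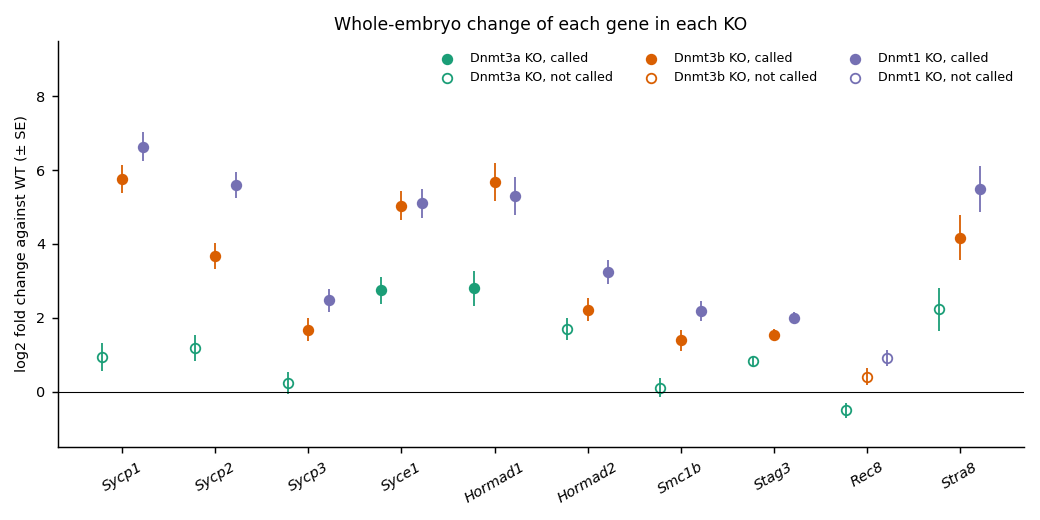
Whole-embryo log2 fold change of each gene against WT for the 3 KO genotypes, with bars of 1 SE from edgeR. Sycp1 lies at 6.63 and 5.75 in Dnmt1 and Dnmt3b KO but at 0.92 in Dnmt3a KO, whereas Rec8 lies at 0.90, 0.41 and -0.51.

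Direct comparisons of KO genotypes used the same fit and share samples with those above. Between Dnmt1 KO and Dnmt3a KO all 10 members were called higher in Dnmt1 KO, where 6.87% of genes were. Dnmt3b KO exceeded Dnmt3a KO for 2 of 10, Sycp1 (log2 4.83 ± 0.452, adjusted p = 4.4e-05) and Sycp2 (log2 2.49 ± 0.381, adjusted p = 0.00324), with 0.203% of genes called. Hormad1 and Syce1 stood 2.88 and 2.30 log2 units higher in Dnmt3b KO than in Dnmt3a KO without passing (adjusted p = 0.0241 and 0.0137). Without Dnmt3b KO 11 and 12, 1 of 10 was called between Dnmt3b and Dnmt3a KO, where 0.0254% of genes were higher. With a Y-linked covariate in the fit of all embryos, every member but Rec8 was called against WT in Dnmt1 KO (1170 of 18760 genes higher). Every member but Rec8 and Sycp3 was called in Dnmt3b KO (459 of 18760) and no member in Dnmt3a KO (59 of 18760). Sex was confounded mostly with the contrasts against WT, since all Dnmt1 KO and Dnmt3a KO libraries had Y-linked transcripts. Among libraries with them only, which leaves 1 WT embryo whose spread is taken from the other groups, 5 of 10 members were called in Dnmt1 KO by edgeR and 0 in either Dnmt3a KO or Dnmt3b KO. Of the Dnmt1 KO calls lost there, Stra8 stood at 5.63 on the log2 scale (adjusted p = 0.0209), Smc1b at 2.18 (0.0407), Sycp3 at 2.27 (0.0272) and Stag3 at 1.81 (0.0102). Over all genes that fit called 294 of 19572 higher in Dnmt1 KO (1.5%), and it called no gene higher or lower in Dnmt3a KO (0.0%) or Dnmt3b KO (0.0%). Sycp1 in Dnmt3b KO was 3.84 ± 0.42 on the log2 scale there (adjusted p = 0.0196). Among libraries without them, Dnmt3b KO 12 against 6 WT embryos gave 8 calls, with Sycp1 at 6.93, Hormad1 at 6.80 and Syce1 at 6.03. The KO arm was there 1 library, that with the low Dnmt3a level, with its spread taken from WT, and 617 of 18976 genes (3.25%) were called higher.

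Of 38 other meiosis genes, 36 were tested. Those called higher numbered 16 (Dnmt1 KO), 3 (Dnmt3a KO) and 10 (Dnmt3b KO), and none was lower. Without Dnmt3b KO 11 and 12 the Dnmt3b KO count was 5 of 37. In the fit of all embryos their median log2 fold changes of 0.70, 0.13 and 0.59 were nearer to those of all genes than the members' were. The largest in Dnmt1 KO were Ankrd31 (5.58), a partner of the break machinery, and Syce3 (5.31) and Tex12 (5.28), both of the central element that Syce1 belongs to. The largest in Dnmt3b KO were Tex12 (4.80), Ankrd31 (4.47) and Tex11 (4.31). Of 14 genes of the PRC1.6 repressor and partners such as Setdb1 and Uhrf1, 0 were called in any KO by edgeR, and 6, 2 and 4 had an unadjusted p below 0.05 in Dnmt1, Dnmt3a and Dnmt3b KO.

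The cells were next grouped by class, to ask where in the embryo the members rose. Clusters were named from marker genes as 18 classes such as erythroid-like, and 22.2% of cells stayed unnamed. A class entered a comparison where at least 3 embryos of both groups had 25 or more of its cells. In Dnmt1 KO this gave 7 classes and 70 pairs of member and class, of which 52 passed the filter on low counts and 41 were called higher. Over all genes 4.44% of pairs were called higher. In Dnmt3b KO 63 of 150 pairs were called (96 passed the filter), against 0.649%, and in Dnmt3a KO 9 of 160 (96 passed the filter), against 0.101%. No pair of a member was lower, whereas this was so for 3.48%, 0.0165% and 0.0333% of pairs over all genes in Dnmt1 KO, Dnmt3a KO and Dnmt3b KO. A member may have passed the filter only through the group in which it was high. Without a filter the calls were 49 in Dnmt1 KO (3.68% of pairs over all genes), 77 in Dnmt3b KO (0.715%) and 22 in Dnmt3a KO (0.166%). Without Dnmt3b KO 11 and 12 the Dnmt3b KO calls were 38 of the same 150 pairs (109 passed the filter), against 0.203% over all genes.

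Sycp1 was called in 7 of 7 classes in Dnmt1 KO and in 13 of 15 in Dnmt3b KO. Hormad1 was called in 7 of 7 and in 14 of 15, and Syce1 in 6 of 7 and in 13 of 15. In Dnmt3b KO these calls took in tissues of all germ layers: neuroepithelium-like, surface ectoderm-like, somitic mesoderm-like, cardiomyocyte-like, endothelium-like, erythroid-like and gut endoderm-like cells among them. Hormad2 was called in 10 of 15 classes, Sycp2 in 5, Stra8 in 4, Stag3 in 2, Sycp3 and Smc1b in 1 each, and Rec8 in none. Macrophage-like cells of Dnmt3b KO gave no call among the 3 members tested there (Hormad1 at 26.3 CPM against 0.276 in WT, Sycp1 at 20.1 against 0 UMIs in 123 WT cells, which allows up to 0.737 CPM). The 9 calls in Dnmt3a KO were spread over 5 classes. Syce1 and Hormad2 were called in 3 classes each, Hormad1 in 2 and Stra8 in 1. Syce1 in surface ectoderm-like cells averaged 1.43 ± 0.445 CPM in Dnmt3a KO (90 UMIs), where all WT embryos together gave 1 UMI in 1762 cells. Hormad1 in erythroid-like cells averaged 5.24 CPM against 0.231 in WT (log2 3.90 ± 0.647, adjusted p = 0.00779). Classes were not made up alike in Dnmt1 KO and WT. Of the ExE (extraembryonic) mesoderm- and allantois-like reference cells of Dnmt1 KO, 99.1% lay in a cluster led by Tdo2, Peg3, Stard8 and Ahnak, which held 0.655% of those of WT. Of the pharyngeal mesoderm-like ones 99.6% lay in a cluster led by Sfrp5, Mef2c, Igfbpl1 and Rbm24, against 4.35% in WT. Endothelium-like and gut endoderm-like cells mostly shared clusters with WT, in other shares (74.1% against 46% in the endothelium-like cluster led by Lyve1 and 81.9% against 41.5% in the gut endoderm-like cluster led by Nepn). The part of this make-up in the Dnmt1 KO calls was not tested. The number of Dnmt3a KO pairs fell to 2 without Dnmt3a KO 13 and to 3 without Dnmt3a KO 14, and no share over all genes is given for these fits.

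**Figure D3:**
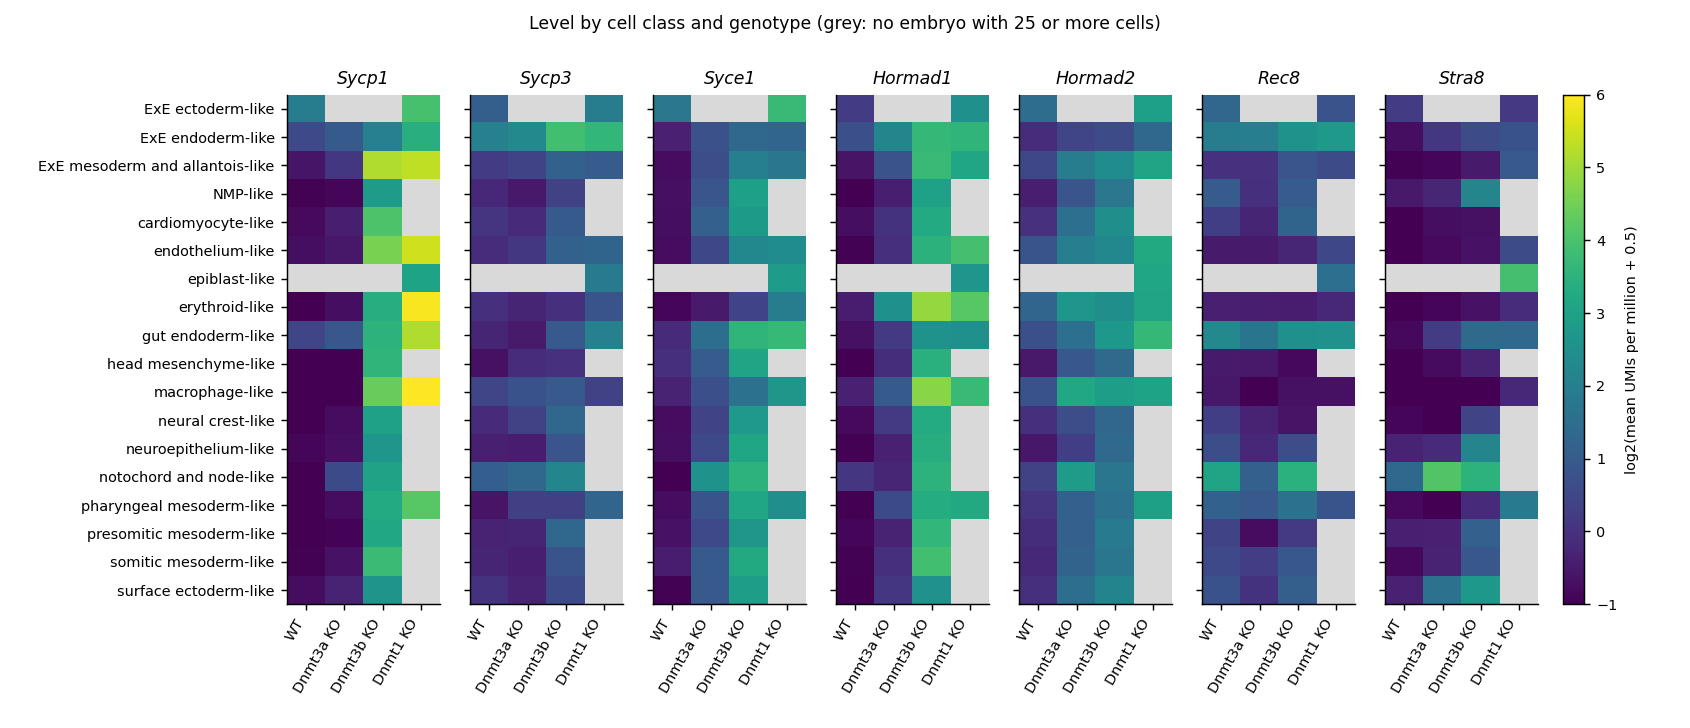
Mean level of Sycp1, Sycp3, Syce1, Hormad1, Hormad2, Rec8 and Stra8 by named cell class (vertical) and genotype (horizontal), coloured by log2(CPM + 0.5). Grey marks a class of which no embryo had 25 or more cells. Sycp1 of Dnmt1 KO is brightest in macrophage-like and erythroid-like cells. Rec8 is bright in notochord-like and endoderm-like cells of WT, and Stra8 of Dnmt1 KO is bright in epiblast-like cells.

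The level that Sycp1 reached depended on the class. In Dnmt1 KO it averaged 68.4 CPM in macrophage-like, 60.5 in erythroid-like, 44.5 in endothelium-like, 40.1 in ExE mesoderm- and allantois-like and 35.6 in gut endoderm-like cells. It was 17.8 CPM in pharyngeal mesoderm-like, 15 in ExE ectoderm-like, 10.0 in ExE endoderm-like and 7.91 in epiblast-like cells. In Dnmt3b KO the same gene ran from 35.3 CPM in ExE mesoderm- and allantois-like and 23.4 in endothelium-like to 5.63 in surface ectoderm-like and 3.67 in ExE endoderm-like cells. ExE mesoderm- and allantois-like, endothelium-like and macrophage-like cells stood high in both orders, though their embryos varied widely in Dnmt3b KO (7.28 to 37.3 CPM in endothelium-like cells). The name macrophage-like is uncertain. Its only cluster had marker scores of 2.32 for macrophage and 2.15 for endothelium, with 4 macrophage markers detected. ExE endoderm-like cells were lowest in Dnmt3b KO. Hormad1 had another order in Dnmt3b KO, with 29.5 CPM in erythroid-like and 26.3 in macrophage-like cells and 5.30 in surface ectoderm-like cells.

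Stra8 in Dnmt1 KO was uneven among classes. It averaged 14.8 ± 5.84 CPM in epiblast-like cells (SD, n = 3), a class of which no WT embryo had 25 cells, and 20.8 ± 5.63 in unnamed cells. The name epiblast-like is uncertain for 35.6% of its Dnmt1 KO reference cells. These lay in a cluster led by Cdx1, Phlda3, Pou5f1 and Nefm, with Cdx2, Wnt8a and the neuromesodermal progenitor (NMP) marker Nkx1-2 also among its leading genes and marker scores of 1.14 for epiblast and 0.98 for NMP. In erythroid-like cells it averaged 0.418 ± 0.153 CPM, from 5 UMIs in 380 cells. After every cell was thinned to 5000 UMIs, 5.74% to 9.54% of unnamed cells and 4.11% to 9.20% of epiblast-like cells of each Dnmt1 KO embryo held a Stra8 UMI. In erythroid-like cells the share was 0.109% to 0.265%. Free RNA was not measured, and these cells mostly lay in a cluster with no globin among its leading genes, so their share is given for comparison and not as a known background. The median depths of these cells were 27741, 50286 and 41021 UMIs. In notochord- and node-like cells of Dnmt3a KO, Stra8 averaged 16.6 CPM (7.32 to 41.7 over 4 embryos, 46 UMIs in 114 cells) against 2.0 in WT (1.15 to 3.05 over 4 embryos, 7 UMIs in 118 cells). Dnmt3a KO 13 held 30 of the 46 UMIs, 14 of them in 1 cell, and the other 3 embryos averaged 8.26 CPM. The 2 groups did not overlap. No member passed the filter on low counts in this class, and without the filter Stra8 was called (log2 2.92 ± 0.561, adjusted p = 0.000137), where 0.138% of 16648 genes were called higher. This call was not tested without Dnmt3a KO 13.

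WT embryos already showed a class pattern, set out here from few UMIs. ExE endoderm-like cells, the yolk sac endoderm, made up 13.1% of WT cells but held 61.7% of the Hormad1 UMIs, 59.6% of those of Sycp3, 58.0% of those of Sycp1 and 33.8% of those of Rec8. Hormad2 had 37.6% of its UMIs in erythroid-like cells, which were 14% of cells. Sycp2 had 30.4% in cardiomyocyte-like cells (2.18% of cells, 28 UMIs) and 19.6% in pharyngeal mesoderm-like cells (1.22% of cells, 18 UMIs). Rec8 averaged 8.06 CPM in notochord- and node-like, 4.38 in gut endoderm-like and 3.36 in ExE endoderm-like cells of WT, and 0.213 in endothelium-like cells.

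ExE endoderm-like cells were then compared with all other cells of the same embryo, with the embryo as a block. In WT 6 of 10 members were called higher in this class, where 20.2% of 16624 genes were, and none was lower. Sycp1 stood at 0.951 ± 0.723 CPM in the class and 0.111 ± 0.125 in the rest, and was higher in the class in 7 of 7 embryos (log2 3.66 ± 0.286). Hormad1 (1.14 against 0.0991 CPM), Sycp3 (3.61 against 0.444), Rec8 (3.36 against 1.17), Syce1 (0.280 against 0.142) and Stag3 (0.891 against 0.549) were the others. Stag3 lost the call without WT 1.

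In the KO embryos part of this order turned. Sycp1 in Dnmt1 KO was 11.2, 8.89 and 9.97 CPM in the ExE endoderm-like cells of embryos 1, 2 and 3, against 29.9, 24.4 and 22.1 in their other cells. In Dnmt3b KO it was 3.99, 2.70 and 4.30 CPM against 6.99, 10.6 and 23.1 (libraries 1 and 2 together, 11 and 12). The class was lower in 3 of 3 embryos of both genotypes, whereas in Dnmt3a KO it was higher in 4 of 4 (1.46 against 0.249 CPM), as in WT. Tested as the change of the class difference against WT, Sycp1 gave -4.82 ± 0.391 log2 units in Dnmt1 KO (adjusted p = 7.3e-07) and -5.06 ± 0.398 in Dnmt3b KO (adjusted p = 5.46e-06). In Dnmt1 KO 4 of 10 members were called (Sycp1, Hormad1, Syce1 and Stag3), where 4.1% of genes fell, and in Dnmt3b KO 3 of 10 (Sycp1, Hormad1 and Syce1), where 0.349% fell. Changes upward were called for no member and for 1.85% and 0.0602% of genes. In Dnmt3a KO 0 of 10 passed by edgeR (0.0722% of genes fell and 0.018% rose), with Hormad1 (-1.73, adjusted p = 0.108) the furthest below 0, and 3 members had a fall at an unadjusted p below 0.05. Without Dnmt3b KO 12, and without Dnmt3b KO 11 and 12 together, the count in Dnmt3b KO dropped to 1 (Sycp1), which in the latter fit was the 1 gene called lower of 17506 (0.00571%, log2 -4.10 ± 0.465, adjusted p = 0.00357), and without Dnmt1 KO 1 or Dnmt1 KO 2 the Stag3 call was lost.

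Hormad1 in this class was higher than in the rest in 3 of 3 Dnmt1 KO and 2 of 3 Dnmt3b KO embryos. It averaged 11.4 CPM in ExE endoderm-like cells and 8.01 in other cells of Dnmt1 KO, and 12.1 and 12.3 in Dnmt3b KO. The class difference fell by 3.27 log2 units in Dnmt1 KO and by 3.60 in Dnmt3b KO. This is a fall of a ratio, and in WT the rest stood near the floor (0.0991 CPM, against 1.14 in the class). Sycp3, of the chromosome axis, stayed higher in the class in every KO embryo of these genotypes. It averaged 14.1 ± 3.26 CPM in the class and 1.24 ± 0.08 in the rest in Dnmt3b KO, and 11.9 against 2.61 in Dnmt1 KO. Its changes of the class difference were -0.91, 0.29 and 0.51 log2 units in Dnmt1, Dnmt3a and Dnmt3b KO, and none passed (adjusted p = 0.0525, 0.662 and 0.464). Of the class's reference cells in Dnmt1 KO, 71.3% fell in a cluster led by Apob, Cubn, Mt1 and Pkd1l2, which held 0.146% of the WT cells of the class. Dnmt3b KO and WT cells shared the other 4 clusters. The part of this make-up in the Dnmt1 KO values was not tested.

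**Figure D4:**
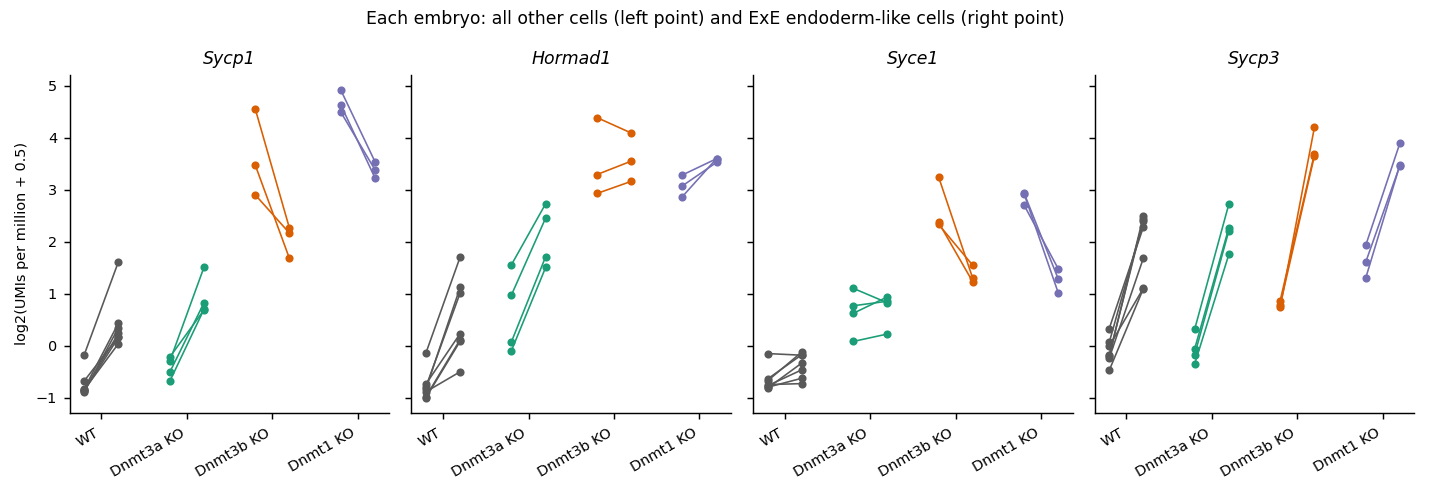
Level of selected genes in each embryo as log2(CPM + 0.5), with the left point of each pair for all other cells and the right point for ExE endoderm-like cells. Lines for Sycp1 slope up in WT and Dnmt3a KO and down in Dnmt1 KO and Dnmt3b KO, whereas those for Sycp3 slope up in every genotype.

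The same test was run on erythroid-like cells, a class that did not hold the same clusters in every genotype. Most of its reference cells in Dnmt1 KO (89.4%) fell in a cluster led by Gm26917, Usp26, Fermt3 and Btg2, with no globin among its leading genes, whereas those of WT lay in clusters led by globin and other red cell genes. Dnmt1 KO against WT in this class thus sets different clusters side by side. In Dnmt3b KO 17% of them lay in a cluster led by Hbb-y, Dazl, Blvrb and Hba-x, which held 0 WT cells. The part of either cluster in the values was not tested. In WT, Hormad2 was higher in them than in the rest in 7 of 7 embryos (1.95 ± 0.422 against 0.524 ± 0.153 CPM, log2 2.64 ± 0.17), where 11.2% of 16785 genes were called higher. Rec8 was lower (0.263 against 1.71 CPM), and Smc1b, Sycp1, Stra8 and Sycp2 gave 3, 3, 1 and 0 UMIs in 4812 cells. For Sycp2 the 0 UMIs allow a pooled level of up to 0.0188 CPM, and its call was lost without WT 2 or WT 7. In total 5 members besides Hormad2 were called lower, as were 37.2% of genes. Sycp1 rose far in this class in Dnmt1 KO, to 53.5, 59.2 and 68.8 CPM at the lowest, median and highest embryo, against 17.5 to 21.3 in the rest. In Dnmt3b KO it was 4.10, 8.38 and 17.1 CPM against 6.93, 9.49 and 21.5 in the rest.

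Against WT the class difference of Sycp1 changed by 5.19 log2 units in Dnmt1 KO (adjusted p = 2.08e-07) and by 3.75 in Dnmt3b KO (adjusted p = 0.00148). In the fits without 1 library the Dnmt3b KO size ran from 3.54 to 7.42 log2 units. These fitted sizes rest on 3 WT UMIs, all in WT 2, and depend on the prior count. Without that embryo the Dnmt3b KO call was lost (adjusted p = 0.0211), as it was without Dnmt3b KO 11 and 12 (log2 3.40 ± 0.592, adjusted p = 0.0876, with 0.0% of genes called higher). Hormad2 was still higher in the erythroid-like cells of 3 of 3 Dnmt1 KO embryos (8.01 against 6.51 CPM, and 1.95 against 0.524 in WT). As a ratio, its class difference fell by 2.10 log2 units (adjusted p = 1.15e-05 by edgeR). Of 10 members, 2 were called for Dnmt1 KO, 1 for Dnmt3b KO and 0 for Dnmt3a KO. Over all genes 3.71% of changes were called higher and 3.81% lower in Dnmt1 KO, and 0.0357% higher and 0.0119% lower in Dnmt3b KO. In Dnmt3a KO the shares were 0.0238% and 0.00596%. For Dnmt3a KO 1 member had an unadjusted p below 0.05 in this class (Hormad1, 1.58 log2 units, adjusted p = 0.592).

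The share of cells in which a member was seen depended on depth, so cells were thinned to 5000 UMIs, which left out 1567, 9476, 7132 and 6689 shallower cells of Dnmt1 KO, Dnmt3a KO, Dnmt3b KO and WT. A UMI of at least 1 of the 10 genes was then found in 1.66% to 3.26% of cells per WT embryo, 2.88% to 5.50% in Dnmt3a KO, 12.8% to 27.1% in Dnmt3b KO and 23.1% to 27.4% in Dnmt1 KO. The lowest of Dnmt3b KO was that of libraries 1 and 2 together, which alone gave 12.9% and 12.6%. Dnmt3b KO and Dnmt1 KO embryos thus lay above all WT embryos, and Dnmt3b KO 12 lay with Dnmt1 KO. Unthinned shares were 8.11% to 20.3% in WT and 48.9% to 82.2% in Dnmt1 KO. For Sycp1 alone the thinned shares were 0.0388% to 0.283% in WT, 0.125% to 0.254% in Dnmt3a KO, 2.93% to 9.02% in Dnmt3b KO and 8.60% to 10.8% in Dnmt1 KO. Cells with 2 or more of the members made up 2.63% to 3.58% in Dnmt1 KO and at most 0.0952% in WT. In Dnmt3b KO they made up 0.803% to 3.53%, the highest in Dnmt3b KO 12, and in Dnmt3a KO 0.0142% to 0.171%.

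**Figure D5:**
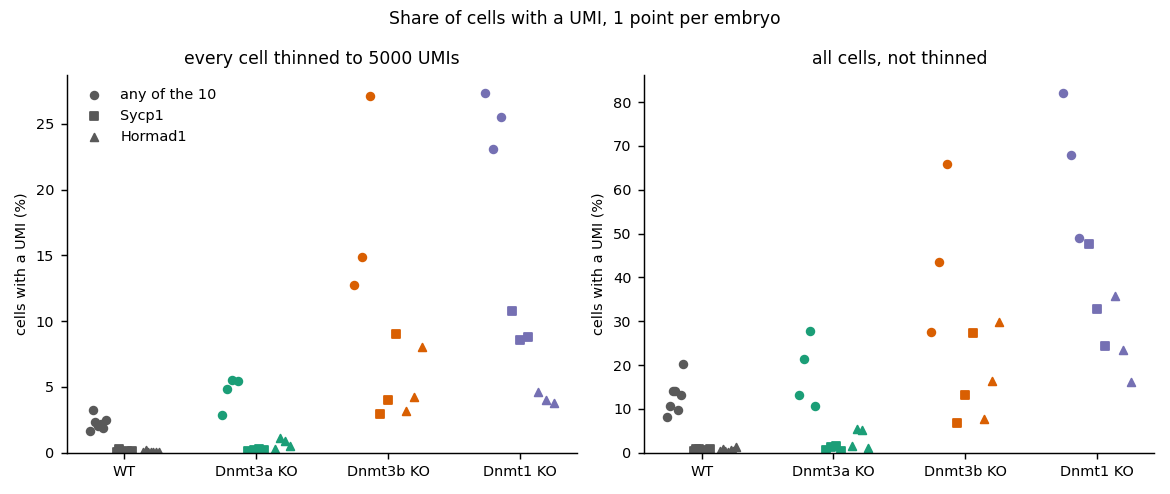
Share of cells with a UMI of any of the 10 genes or of single genes, in percent, with 1 point per embryo, after thinning to 5000 UMIs per cell and before it. The 3 Dnmt1 KO embryos lie between 23.1% and 27.4% for any gene after thinning, and the 7 WT embryos between 1.66% and 3.26%.

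Germ cells, the lineage that later enters meiosis, are present in small number at this stage. Barcodes with UMIs of 2 or more of the germ cell markers Dppa3, Nanos3 and Dnd1 numbered 132 in Dnmt1 KO (1.87% of cells), 44 in Dnmt3a KO (0.129%), 77 in Dnmt3b KO (0.223%) and 39 in WT (0.113%). They held 3.49% of the members' UMIs in Dnmt1 KO and 0.345% to 0.461% in the other groups. Without them the members called were 9 in Dnmt1 KO (8.17% of genes higher), 2 in Dnmt3a KO (0.214%) and 9 in Dnmt3b KO (1.78%). Whether such barcodes are germ cells in each genotype was not tested. Seeing 2 markers depends on depth, so shallow germ cells could remain.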

How the data were processed

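Single-cell 3′ libraries (10x v3) were counted by the authors with Cell Ranger 3.1.0 (17 libraries) or 5.0.0 (1 library), per the labels. The authors deposited raw UMI counts per gene and barcode on mm10. For 4 libraries (Dnmt3a KO 1 and 13, Dnmt3b KO 11, WT 1) their reference held human genes too, whose counts were dropped. All else was computed here. Cells needed 1500 UMIs, at most 30% mitochondrial and 35% ribosomal protein counts, and 7924 doublets found by scrublet were left out.

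Clusters (scanpy 1.11.5, Leiden resolution 4, raised after a coarser clustering was seen) of 26830 reference cells, 1500 per library at most, were named from markers. Of 59 clusters, 13 stayed unnamed. Counts were summed per embryo, or per embryo and class, and tested in edgeR 4.0.16 (filterByExpr, TMM, quasi-likelihood, all 4 genotypes in 1 fit). DESeq2 1.42.0, other filters and scalings, covariates for sex and reference, and leaving out libraries were alternatives. On simulated counts, 100% of 4-fold and 43% to 52% of 2-fold changes were called in the whole-embryo comparisons. For a changed class difference, simulated for erythroid-like cells of Dnmt3b KO, 96% of 4-fold and 15% of 2-fold changes were called. Intervals, limits at 3 UMIs and shares cover counting error only.

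The members and gene lists were chosen with earlier results of these data known. All 10 members were described. Of the other meiosis genes, the 3 with the largest called change in Dnmt1 KO and in Dnmt3b KO were named. ExE ectoderm-like cells could not be tested against the rest, since 1 WT embryo held enough of them. Reads from overlapping genes were not separated here. For each member the 3 genes most like it in pattern were to be named, and a gene among them is not reported here.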

Additional observations from a re-analysis of the deposited data

Results flagged for a closer look

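WT and Dnmt3a KO, the genotypes with 4 or more separate embryos, were screened gene by gene with Dixon's criterion. In 3 of these 20 groups 1 library stood apart from the others, where chance marks about 1 in 20. Dnmt1 KO and Dnmt3b KO, each counted as 3 units, were not screened. Summed over all members, Dnmt3b KO 12 stood at 69.4 CPM, against 27.9 to 35.3 CPM in the other libraries of that genotype. Sycp1 was 0.527 CPM in WT 2 and 0.224 in the next WT embryo. Syce1 was 0.400 CPM in WT 2 and 0.191 in the next. WT 2 held 121 ExE ectoderm-like cells and, of its 87 Sycp1 UMIs, 10 lay in them, 27 in ExE endoderm-like and 18 in gut endoderm-like cells. WT 2 was also the 1 WT embryo with Y-linked transcripts, and the part of either in these levels was not tested. Hormad2 was 3.1 CPM in Dnmt3a KO 13 and 2.20 in the next Dnmt3a KO embryo.

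The difference between a class and the rest of the embryo changed against WT, by a test of that change, for 10 of 60 combinations of gene, class and KO. Over all genes in Dnmt1 KO, 3.71% of changes were called higher and 3.81% lower in erythroid-like cells. In ExE endoderm-like cells of Dnmt1 KO these were 1.85% and 4.1%, and in the other KO genotypes at most 0.349% in either direction and class. In ExE endoderm-like cells of Dnmt1 KO the log2 changes were -4.82 for Sycp1, -3.27 for Hormad1, -3.13 for Syce1 and -1.53 for Stag3. In the same class of Dnmt3b KO they were -5.06 for Sycp1, -3.60 for Hormad1 and -2.58 for Syce1. In erythroid-like cells Sycp1 changed by 5.19 in Dnmt1 KO and by 3.75 in Dnmt3b KO, and Hormad2 by -2.10 in Dnmt1 KO. Both sizes of Sycp1 rest on 3 WT UMIs, all in WT 2, and the Dnmt3b KO call was lost without that embryo. Most erythroid-like reference cells of Dnmt1 KO (89.4%) lay in a cluster that held few of WT (0.424%).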

How the results depend on the processing

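Under alternative settings 838 of the members' whole-embryo fold changes against WT kept their direction and side of the thresholds, 58 lost a call, 9 gained one and 5 reversed. For classes against the rest, 385 kept both and 11 lost a call. In Dnmt3a KO against WT 2 members were called, where 40 of 18760 genes were higher. There were 0 with a Y-linked covariate, where 59 of 18760 genes were higher. It was 1 member with a covariate for libraries counted on 2 species (30 of 18760 genes) or after thinning libraries to the smallest (24 of 15829), and 1 to 3 without 1 library. Against WT, libraries with Y-linked counts alone gave 5 members in Dnmt1 KO and 0 in Dnmt3b KO, and leaving out Dnmt3b KO 11 and 12 gave 5 in Dnmt3b KO. Between Dnmt1 KO and Dnmt3b KO, 3 were called with Y-linked libraries alone and 0 to 2 without 1 library. Between Dnmt3b KO and Dnmt3a KO, 5 were called by DESeq2, 1 with a Y-linked covariate, with Y-linked libraries alone or without Dnmt3b KO 11 and 12, 4 without erythroid-like and extraembryonic endoderm- and ectoderm-like cells, and 1 to 4 without 1 library. Pairs of member and class fell to 26 in Dnmt1 KO with at least 50 cells, where 33 rather than 52 pairs were tested, and to 38 in Dnmt3b KO without Dnmt3b KO 11 and 12. In Dnmt3a KO they were 16 by DESeq2, 5 with the combined reference covariate, 22 without a filter (0.166% of pairs over all genes) and 2 to 13 without 1 library. No share over all genes stands beside the other counts of pairs here. Those counts cannot tell a shift of the members from a shift of all genes. For Dnmt3b KO, members with a changed class difference numbered 1 to 3 in ExE endoderm-like and 0 to 1 in erythroid-like cells without 1 library, and 1 and 0 without Dnmt3b KO 11 and 12. Direction reversed for Dnmt3a KO against WT alone, for differences that had not passed: Smc1b was -0.018 after thinning and -0.12 (without Dnmt3a KO 14) to 0.31 without 1 library, Sycp3 -0.056 with a Y-linked covariate and -0.16 (without Dnmt3a KO 2) to 0.40 without 1 library, and Sycp1 -0.41 among Y-linked libraries. The cause was not tested. The fits without Dnmt3b KO 11 and 12, those restricted by Y-linked counts and the leave-one-out fits of classes against the rest were chosen after seeing the data.

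Deviations of same-numbered libraries from their groups gave correlations of -0.24 to 0.20. No baseline from libraries of different numbers was set beside these, so whether a number stands for a shared litter or batch was not settled. With the number as a replicate block, 3 members were called between Dnmt1 KO and Dnmt3a KO. The count was 0 between Dnmt1 KO and Dnmt3b KO, Dnmt3a KO and WT, Dnmt3b KO and Dnmt3a KO, and Dnmt3b KO and WT. Dnmt3a KO 13 and 14, Dnmt3b KO 11 and 12 and WT 4 to 7 bear numbers of no other library and add nothing to contrasts within numbers. Contrasts of Dnmt3b KO in this fit thus rest on its libraries 1 and 2, which entered separately although they share 12249 barcodes. Of 18717 genes tested with the block, 0 were higher in Dnmt3b KO or Dnmt3a KO against WT and 1 in Dnmt3b KO against Dnmt3a KO, but 781 were in Dnmt1 KO against WT, 332 against Dnmt3a KO and 286 against Dnmt3b KO. In Dnmt3b KO against WT it put Sycp1 at 4.42 (adjusted p = 0.0134 by edgeR), Hormad1 at 4.47 (0.0152), Sycp2 at 4.22 (0.02), Stra8 at 2.03 (0.738) and Hormad2 at 1.07 (0.582).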

Other observations

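The genes whose whole-embryo pattern was most like that of each member were read from Pearson's r of log2(CPM + 0.5) over the 17 embryos. This is a description over 18760 genes with no test, and the embryos share genotype groups and depth. Sycp1 was followed most closely by Tuba3a and Ly6k (both 0.985) and Reg2 (0.983), and Sycp2 by Ankrd31 (0.985), Topaz1 (0.984) and Gm884 (0.981). Syce1 was nearest to Gpat2 (0.985), AU022751 (0.983) and Rpl39l (0.982), and Hormad1 to Gpat2 (0.987), AU022751 (0.983) and Slc25a31 (0.979). Stag3 was nearest to Rbm44 (0.971), D1Pas1 (0.970) and Ddx4 (0.968), the germ cell helicase, and Hormad2 to Tex19.1 (0.970), Xlr (0.966) and Rmdn1 (0.964). Stra8 was nearest to Myh3 (0.974), Aurkc (0.972) and Tktl2 (0.972), Smc1b to Fut9 (0.944), Nckap1l (0.943) and Nr3c1 (0.942), and Sycp3 to Dppa5a (0.963), Gc (0.954) and Rbakdn (0.935). Rec8 had the least close neighbours (Pyroxd1 0.876, AC163633.2 0.835). Among the members themselves, Syce1 and Hormad1 were the closest pair (0.989), and Rec8 gave 0.406 to 0.821 with the others.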
